A study of Homo sapiens with 4 samples.

Results

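The 10 genes described here belong to the endoplasmic reticulum (ER) and were measured in HCT116 cells that had received an antisense oligonucleotide (ASO) against tandem GAA repeats. They were HSPA5, HYOU1, SDF2L1, DNAJB9, CALR, CANX, PDIA4, PDIA6, XBP1 and EDEM1. They were chosen by name, as the rows of the count table whose Ensembl identifier carries these symbols, and made up 10 of the 63677 genes counted. HCT116 is an established human colorectal cancer cell line. The 4 RNA-seq libraries all came from this line, grown in RPMI medium and, according to the labels, transfected for 48 h (the study's methods state a shorter time and an mRNA library kit in place of the labels' total RNA kit). In 2 libraries the cells had received the anti-GAA ASO, and in the other 2 a control ASO, so that transfection with an oligonucleotide was common to both groups. The ASO holds 7 tandem TTC units (21 nt) and was designed to direct RNase H, which cuts the RNA strand of an RNA-DNA hybrid, to RNAs with tandem GAA repeats. Replicates 1 and 2 of each group carry the numbers 232 and 234 in the titles, and the labels do not say whether a number marks a shared day or culture. The p-values therefore measure only the spread between these libraries, which may be technical.

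The ER folds secreted and membrane proteins with the help of chaperones, lectins and enzymes that form disulfide bonds. When unfolded proteins build up, the unfolded protein response (UPR) is set off by the membrane sensors IRE1, PERK and ATF6. ATF6 is cut in the Golgi and its released part induces ER chaperone genes, IRE1 splices the XBP1 mRNA to yield a factor that induces ER degradation and translocation genes, and PERK slows translation and raises ATF4. By these known targets, HSPA5, HYOU1, SDF2L1, CALR, PDIA4, PDIA6 and XBP1 were placed in an ATF6 arm, DNAJB9 and EDEM1 in an XBP1 arm, and CANX in neither. Counts per gene do not separate spliced from unspliced XBP1 mRNA and do not show the cut form of the ATF6 protein, so what follows is about the abundance of the target mRNAs. The comparison asks whether ER chaperone mRNAs changed with the anti-GAA ASO, and how they stood beside the ATF4 arm and the heat shock genes. As these are bulk samples, fewer cells expressing a gene and less RNA per cell cannot be told apart.

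Promoters of 7 of these genes hold an element through which ATF6 is known to act, and the elements are shown for that reason. The ER stress response element (ERSE) is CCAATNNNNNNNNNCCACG, a CCAAT box and CCACG set 9 bases apart. Both strands were searched in the RefSeq promoters of GRCh38.p14, from 250 bases before to 50 bases after each annotated start. ERSE was found in 5 of the 10 genes, against 0.0769% of the 35116 promoters in the table (27 promoters). The latter share counts promoters, not genes, and includes those of the 10 genes. These genes were chosen by name for this response, so the contrast is a description without a test. Below, the element is in capitals with 5 flanking bases on each side, on the strand of the gene. In CALR it lies on the other strand. In CANX, PDIA6 and XBP1 it precedes only some of the annotated starts.
HSPA5 (chr9:125241386-125241414, minus strand): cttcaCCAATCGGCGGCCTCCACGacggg
CALR (chr19:12938379-12938407, plus strand): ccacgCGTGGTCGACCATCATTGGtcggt
CANX (chr5:179698773-179698801, plus strand): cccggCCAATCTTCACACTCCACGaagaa
PDIA6 (chr2:10812848-10812876, minus strand): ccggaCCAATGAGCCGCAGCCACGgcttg
XBP1 (chr22:28800598-28800626, minus strand): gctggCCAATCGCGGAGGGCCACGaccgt

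The related ERSE-II (ATTGGNCCACG, again on both strands) was found in SDF2L1 and at 2 places in HYOU1, against 0.0541% of all promoters. HYOU1 also held TGACGTGG, searched as the UPR element (UPRE), which overlapped its first ERSE-II and occurred in 0.729% of all promoters. In the lines below the capitals mark ERSE-II, which lies on the opposite strand in each.
SDF2L1 (chr22:21642109-21642129, plus strand): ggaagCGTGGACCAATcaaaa
HYOU1, first (chr11:119057375-119057395, minus strand): cgtgaCGTGGTCCAATcccag
HYOU1, second (chr11:119057269-119057289, minus strand): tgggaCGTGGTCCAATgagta
Of 8 other listed ATF6 targets, 2 held ERSE and 1 held ERSE-II, and of the 13 heat shock genes listed as targets of HSF1, 0 held any of the 3 elements. A match describes the letters in the window and not binding. PDIA4, DNAJB9 and EDEM1 had none of the 3 spellings in this window.

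The other sequence that bears on these mRNAs is the match to the ASO itself. In the canonical transcript of each gene (GENCODE 44, GRCh38), every stretch of 21 bases was compared with the 7 tandem GAA units that the ASO pairs with. The best stretch of each of 4 mRNAs that the results return to is printed here with matching bases in capitals, beside that of HSP90B1 (endoplasmin, the ER member of the HSP90 family), which had the closest match among the ER genes examined. All 5 lie in coding exons.
SDF2L1, 13 matches, exon 3 of 3 (chr22:21643912-21643932, plus strand): GAAGAcGgcGAgGgcGAcGAc
HSPA5, 15 matches, exon 1 of 8 (chr9:125241050-125241070, minus strand): GgAGgAGgAcAAGAAGgAGgA
CALR, 16 matches, exon 9 of 9 (chr19:12943863-12943883, plus strand): GAgGAAGAtGAgGAgGAAGAt
CANX, 17 matches, exon 13 of 15 (chr5:179724714-179724734, plus strand): GAAGAgGAAGAAGAgaAgGAA
HSP90B1, 19 matches, exon 7 of 18 (chr12:103938418-103938438, plus strand): GtAGAgGAAGAAGAAGAAGAA
The end of calreticulin is known for its run of acidic residues, whose codons all begin with GA. None of the 10 genes had an unbroken GAA run of 12 nt or more, a length reached by 2.61% of the 14751 tested genes with a canonical transcript. The longest was 10 nt, in the 3' UTR of HSPA5, and runs in the other 9 ranged from 5 to 9 nt.

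The libraries held 10538284 to 17894953 counts. The 10 genes together took 0.205% and 0.217% of the counts in the anti-GAA libraries and 0.219% and 0.200% in the control libraries, so that their summed share overlapped between the groups. The epithelial identity of the line was checked with 8 marker genes, of which 7 were above 10 CPM (a gene's count relative to the size of its library) and VIL1, a microvillus protein, was under 1 CPM. In GENCODE 44, 44.2% of the exon bases of VIL1 also belong to a gene on the other strand, and its part in this level was not tested. The summed level of the 8 markers was 2630 to 2961 CPM with the anti-GAA ASO and 2737 to 2971 CPM with the control. Of the 7 that were tested, 5 were lower in both pairs (median of the 7 −0.24), against 30.0% of all tested genes. Both anti-GAA libraries were below both control libraries for these 5, as for 16.9% of all genes. KRT18 was the 1 with an unadjusted p under 0.05 by edgeR, against 3.46% of all genes in this direction. KRT19, which made up the largest share of the sum, had a log2 fold change of 0.26 and was 1 of 2 higher in both pairs. None of the 7 passed after adjustment. All 6 immune markers, and 6 of 7 stromal and endothelial markers, were under 1 CPM in the mean of the libraries. COL1A1, a collagen chain, was the exception, and the summed stromal level was 10.2 to 13.3 CPM with the anti-GAA ASO and 12.3 to 15.4 CPM with the control. Among all tested mRNAs whose best stretch matched the ASO target at 18 to 21 bases, 288 of 391 had a log2 fold change below 0, and the median log2 fold change was −0.19, against 0.013 over all genes tested.

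The 10 mRNAs spanned a wide range of abundance. Per kilobase of canonical transcript, the mean of the 4 libraries was 368 ± 94.8 CPM per kb for SDF2L1 and 213 ± 24.2 CPM per kb for HSPA5 (SD, n = 4 libraries over both groups, as in the values that follow). PDIA4 was at 97.2 ± 11.1, CANX at 95.6 ± 10.4 and XBP1 at 80.9 ± 11.3 CPM per kb. Each of these 5 stood above 89.4% or more of the tested genes on this scale. CALR was next with 24.5 ± 4.998 CPM per kb, followed by DNAJB9 with 6.72 ± 1.13 and EDEM1 with 3.38 ± 1.10. PDIA6 was at 1.81 ± 0.772 and HYOU1 at 0.147 ± 0.0642 CPM per kb, HYOU1 at the level of the lowest 1.2% of tested genes. In this order the ranges of PDIA4 and CANX, of CANX and XBP1, and of EDEM1 and PDIA6 overlapped, and the other neighbours were apart in all libraries.

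The low levels of HYOU1, PDIA6 and CALR stand beside the high level of HSPA5, although all are ER chaperones or folding enzymes. In the GENCODE 44 annotation, 25.2% of the exon bases of PDIA6, 9.77% of those of HYOU1 and 9.64% of those of CALR also belong to a gene on the other strand, and for HSPA5 and SDF2L1 the share is 0%. DNAJB9 (6.72 CPM per kb) had 0%, CANX 4.64%, and the ER J-domain gene DNAJB11, at 183 CPM per kb, 9.34%. The largest shares among the other ER genes examined were 26.6% for PPIB (2.57 CPM per kb), 16.6% for OS9 (0.574 CPM per kb) and 15.2% for TXNDC12 (102 CPM per kb). The annotation release and strand setting behind the counts are not given in the sources used here, and the part of such overlap in the levels was not tested.

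None of the 9 of these genes that passed the filter on low counts was called with the anti-GAA ASO. HYOU1 did not pass it, with 5 and 11 counts in the anti-GAA libraries and 17 and 8 in the control libraries. Of the other 9 genes, 0 had an adjusted p under 0.05 by edgeR (quasi-likelihood test with Benjamini-Hochberg adjustment over 15116 genes), 0 had an unadjusted p under 0.05, and DESeq2, which kept HYOU1, gave 0 and 0 of 10. Across all genes edgeR called 0 (0%, smallest adjusted p = 0.671), and unadjusted p-values under 0.05 were reached by 3.46% of genes in the lower and 1.02% in the higher direction. The median log2 fold change of the 9 genes was 0.025, close to the 0.013 of all genes. The adjusted p was 0.996 by edgeR for each of the 9. For 7 of them the 95% interval lay wholly between −1 and 1, so that a 2-fold change in either direction was outside it. For PDIA6 and EDEM1 the interval was wider. In 8 of the 9 genes the replicates of at least 1 group differed by more than the log2 fold change, and CALR was the exception.

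HSPA5 encodes BiP, the ER member of the HSP70 family, which binds unfolded chains and holds the UPR sensors inactive. The gene lies on chromosome 9 (125234853 to 125241382, minus strand, GRCh38). Its level was 889 and 905 CPM in anti-GAA replicates 1 and 2, and 850.4 and 697 CPM in control replicates 1 and 2. Both anti-GAA libraries were above both control libraries, by a small margin in the first pair. The mean was 897 ± 11.3 against 774 ± 108 CPM (SD, n = 2 each), and the log2 fold change was 0.21 (SE 0.20, 95% interval −0.26 to 0.69, edgeR adjusted p = 0.996). It was 0.084 without control replicate 2 and 0.35 without control replicate 1. On a linear scale the value from all libraries is 1.16-fold, with an interval from 0.835 to 1.61. The log2 difference was 0.06 between the replicates numbered 1 and 0.38 between those numbered 2.

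HYOU1, an ER chaperone that acts as a nucleotide exchange factor for BiP, was at 0.505 and 0.618 CPM with the anti-GAA ASO, against 1.11 and 0.472 CPM with the control. The groups overlapped, and control replicate 1 was the highest. In the fits that kept it, no change was detectable at this depth (log2 fold change −0.46, SE 0.67, edgeR adjusted p = 0.927 without the filter).

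SDF2L1 and DNAJB9 encode partners of BiP. SDF2L1 was at 411 and 245 CPM with the anti-GAA ASO, against 312 and 245 CPM with the control. Its high value was in anti-GAA replicate 1 alone, while the replicates numbered 2 were level, and the log2 fold change was 0.23 (SE 0.29), or −0.18 without anti-GAA replicate 1. DNAJB9, the J-domain protein ERdj4 and a known XBP1 target, was at 15.6 and 16.6 CPM with the anti-GAA ASO, against 19.6 and 13.03 CPM with the control. The anti-GAA libraries lay between the control libraries, and the log2 fold change was −0.02 (SE 0.27). Its sign differed between the pairs and among the ways of analysing the counts.

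The lectin chaperones CALR and CANX hold newly made glycoproteins in the folding cycle, CALR (calreticulin) in the ER lumen and CANX (calnexin) in the membrane. CALR lies on chromosome 19 (12938578 to 12944489, plus strand, GRCh38). It was at 35.2 and 42.2 CPM with the anti-GAA ASO, against 55.4 and 53.1 CPM with the control. Both anti-GAA libraries were below both control libraries, and CALR was the only one of the 9 genes with the groups apart in this direction, which 16.9% of all tested genes were. In the higher direction HSPA5 was the only such gene, against 15.5% of all genes. The mean of CALR was 38.7 ± 4.98 against 54.3 ± 1.62 CPM (SD, n = 2 each) and the log2 fold change was −0.49 (SE 0.21, 95% interval −0.98 to 0.0046, edgeR adjusted p = 0.996). CALR was the 1 gene of the 9 with an unadjusted p under 0.05 when the replicate number was added as a block, and its adjusted p was then 0.124 by edgeR.

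CANX overlapped between the groups. It was at 425 and 523 CPM with the anti-GAA ASO, against 505 and 427 CPM with the control, and the pairs ran in opposite directions, by −0.25 and 0.29 on the log2 scale. The log2 fold change was 0.03 (SE 0.21, 95% interval −0.47 to 0.52).

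PDIA4 and PDIA6 are protein disulfide isomerases. PDIA4 (ERp72) was at 227 and 288 CPM with the anti-GAA ASO, against 267 and 294 CPM with the control, with overlapping groups and a log2 fold change of −0.12 (SE 0.21). PDIA6 (P5) was at 6.77 and 3.26 CPM with the anti-GAA ASO, against 3.39 and 3.13 CPM with the control, from 52 to 67 counts per library. Its anti-GAA replicate 1 stood above the other 3 libraries, which were alike. The log2 fold change of PDIA6 was 0.60 (SE 0.43, 95% interval −0.43 to 1.62), or 0.0088 without anti-GAA replicate 1.

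XBP1, the transcription factor of the IRE1 arm and itself an ATF6 target, was at 156 and 137 CPM with the anti-GAA ASO, against 166 and 120.2 CPM with the control. The anti-GAA libraries lay between the control libraries, with a log2 fold change of 0.04 (SE 0.23, 95% interval −0.50 to 0.57). EDEM1, a lectin that sends misfolded glycoproteins to degradation and a known XBP1 target, was at 13.7 and 23.0 CPM with the anti-GAA ASO, against 16.9 and 29.0 CPM with the control. EDEM1 was lower with the anti-GAA ASO by nearly the same amount in both pairs (−0.30 and −0.33), but replicates 2 exceeded replicates 1 by more than that in both groups. Its log2 fold change was −0.31 (SE 0.36, 95% interval −1.15 to 0.53), or 0.14 without control replicate 2 and 0.015 without anti-GAA replicate 1.

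**Figure D1:**
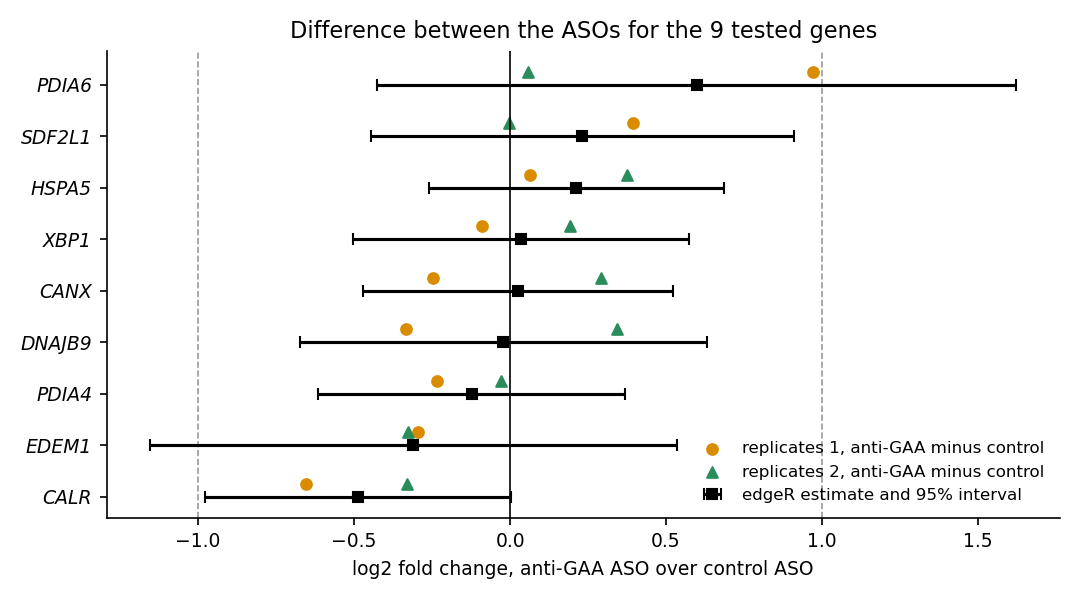
Log2 fold change of the 9 tested genes (x axis, anti-GAA ASO over control ASO), with the edgeR estimate and its 95% interval as black squares and bars, and the difference within replicates 1 (circles) and replicates 2 (triangles). Dashed lines stand at −1 and 1, all 9 intervals hold 0, and that of CALR ends at 0.0046.

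By pair, HSPA5 and PDIA6 were higher with the anti-GAA ASO in both (2 of 9, against 31.8% of all genes), CALR, PDIA4 and EDEM1 were lower in both (3 of 9, against 30.0%), and SDF2L1, DNAJB9, CANX and XBP1 were split. The shares are near those of all genes. The median log2 difference of the 9 genes was −0.23 in replicates 1 and 0.058 in replicates 2. A fit with the replicate number as a block gave 0 calls among the 9 by edgeR, against 1.37% of all genes lower and 0.337% higher.

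Genes of the ATF6 arm lay on both sides of 0. The 6 tested genes of the ATF6 arm had a median log2 fold change of 0.12, with 4 higher and 2 lower, and the 2 genes of the XBP1 arm a median of −0.17. Of the 5 genes with an ERSE, 4 had a log2 fold change above 0 and the median was 0.036. Of the 4 tested genes without one, 1 was above 0 and the median was −0.072. The 1 above 0 was SDF2L1, which holds the related ERSE-II. The sign of CANX and XBP1, both with an ERSE, changed under 3 of 13 alternatives each, so that the counts of higher and lower genes rest on differences near 0.

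The UPR sensors and the proteases that cut ATF6 were all detected, and none passed the test. ATF6 was at 33.2 and 33.9 CPM with the anti-GAA ASO, against 46.3 and 40.6 CPM with the control (log2 fold change −0.37, SE 0.20), with the groups apart. ERN1, which encodes IRE1, was at 19.7 and 21.7 against 15.2 and 17.9 CPM (0.33, SE 0.23), and EIF2AK3, which encodes PERK, at 3.33 and 3.32 against 4.50 and 4.01 CPM (−0.35, SE 0.33). The groups were apart for both, in opposite directions. The log2 fold change was 0.29 (SE 0.30) for ATF6B, a relative of ATF6, −0.08 (SE 0.20) for the protease gene MBTPS1 and 0.28 (SE 0.25) for MBTPS2. Over the 6 genes, the groups were apart in the higher direction for 3 (ERN1, ATF6B and MBTPS2), against 15.5% of all tested genes. They were apart in the lower direction for 2 (ATF6 and EIF2AK3), against 16.9%. None of the 6 had an unadjusted p under 0.05 by edgeR.

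Other ER genes also lay on both sides of 0. Of 8 further ATF6 targets, 3 were higher and 5 lower, with a median of −0.13. HERPUD1, which helps to assemble the ER degradation machinery, was at 119 and 132 CPM with the anti-GAA ASO, against 95.4 and 84.5 CPM with the control (0.48, SE 0.19, unadjusted p under 0.05, edgeR adjusted p = 0.996). HSP90B1 was at 610 and 939 CPM against 979 and 1169 CPM (−0.47, SE 0.26), and DNAJC3, an ER J-domain protein, had a log2 fold change of −0.32 (SE 0.21). The estimate for HSP90B1 was −0.19 without anti-GAA replicate 1, and neither HSP90B1 nor HERPUD1 passed after adjustment.

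Of 22 further XBP1 targets, 15 were higher and 7 lower, with a median of 0.048. PDIA5, another disulfide isomerase, was at 25.8 and 37.3 CPM with the anti-GAA ASO, against 40.6 and 56.8 CPM with the control (−0.62, SE 0.28). It was the only one of the 61 tested ER genes of these lists called in the fit with the block (edgeR adjusted p = 0.0484). That fit called 1.37% of all tested genes lower and 0.337% higher, so 1 of 61 is near the share of all genes. The block in DESeq2 did not call PDIA5 (adjusted p = 0.302), and its log2 fold change was −0.35 without control replicate 2. EDEM3, a relative of EDEM1, had a log2 fold change of −0.75 (SE 0.39) at 2.14 to 5.15 CPM, and SEC61B, a subunit of the translocation channel, 0.34 (SE 0.21). Of 17 other ER folding genes 16 were tested, with 7 higher, 9 lower and a median of −0.026. Those with the smallest p were UGGT2, a folding sensor of glycoproteins (−0.50, SE 0.29), ERP44, which retains proteins in the early secretory pathway (−0.30, SE 0.19), and TXNDC12, a thioredoxin-like ER protein (0.31, SE 0.22).

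The list of PERK and ATF4 genes stood further from 0. Its 12 genes had a median log2 fold change of 0.53, with 10 higher and 2 lower, 8 higher in both pairs (31.8% of all genes were) and 6 with the groups apart in the higher direction (15.5% of all genes). This list, like the others, was chosen with earlier results of these data known, so these counts describe it and do not test it. ATF4, the transcription factor of this arm, was at 450 and 345 CPM with the anti-GAA ASO, against 291 and 251 CPM with the control (0.55, SE 0.22). PHGDH, the first enzyme of serine synthesis, was at 320.5 and 258 against 184 and 163 CPM (0.74, SE 0.21), and SESN2, a stress-induced regulator of mTORC1, at 136 and 71.1 against 68.5 and 49.1 CPM (0.82, SE 0.34). These 3 had unadjusted p-values under 0.05, reached in this direction by 1.02% of all genes, and none passed after adjustment (smallest adjusted p = 0.922). ATF4 itself encodes a factor that is also induced by amino acid shortage and other stresses, and the list does not tell PERK from these.

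Within that list, ATF3 went the other way, at 193 and 92.5 CPM with the anti-GAA ASO, against 346 and 191 CPM with the control (−0.91, SE 0.41). CHAC1, which degrades glutathione, had a log2 fold change of 1.09 (SE 0.56), and ASNS, asparagine synthetase, one of 0.63 (SE 0.28). Single libraries moved these values. CHAC1 was at 0.13 without anti-GAA replicate 1 and 1.76 without control replicate 1, and ASNS at 0.32 without control replicate 2 and 1.03 without control replicate 1. SESN2 was at 0.28 without anti-GAA replicate 1 and 1.22 without anti-GAA replicate 2, and ATF3 at −1.53 without anti-GAA replicate 1 and −0.43 without control replicate 1. When the block was added, CHAC1, ASNS, SESN2 and PHGDH were called higher by edgeR (adjusted p = 0.0101, 0.0454, 0.0198 and 0.0175) and ATF3 as lower (adjusted p = 0.00669). Of all tested genes, that fit called 0.337% higher and 1.37% lower. The block in DESeq2 did not call ASNS (adjusted p = 0.0519). The difference between this list and the ER chaperones was not tested.

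The 13 heat shock genes listed as targets of HSF1, most of them cytosolic chaperones and HSPD1 and HSPE1 mitochondrial ones, had a median of 0.075 with 7 higher and 6 lower, and 0 had an unadjusted p under 0.05 by edgeR. HSPB1, a small heat shock protein, had a log2 fold change of 0.35 (SE 0.25) and DNAJB1, a partner of HSP70, one of 0.36 (SE 0.30). HSP90AA1, the stress-inducible HSP90, was at 5335 and 2249 CPM with the anti-GAA ASO, against 5256 and 4962 CPM with the control. Anti-GAA replicate 2 alone was low, and the log2 fold change of −0.43 (SE 0.38) became 0.07 without it.

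Within the ER genes, those with a closer match to the ASO target ran lower with the anti-GAA ASO. Among the 9 tested genes, the 4 whose best stretch matched at 16 or 17 of 21 bases (CALR, EDEM1, CANX and PDIA4) had a median log2 fold change of −0.22, with 3 lower in both pairs. The 2 with 15 matches (HSPA5 and XBP1) had a median of 0.12, and the 3 with 13 (SDF2L1, PDIA6 and DNAJB9) one of 0.23. Over all 61 tested ER genes of the lists, the 19 with at most 13 matches had a median of 0.17 with 16 higher and 3 lower, the 28 with 14 or 15 matches a median of 0.0092, and the 13 with 16 or 17 matches a median of −0.30 with 2 higher and 11 lower. In the last group 9 were lower in both pairs and 0 were higher in both, where 30.0% of all tested genes were lower in both and, of the 2173 tested genes with 16 or 17 matches, 751 were lower and 564 higher in both. These medians leaned on single libraries. Without anti-GAA replicate 1 they were 0.027, −0.029 and −0.040 in the order given, and without control replicate 2 they were 0.078, −0.070 and −0.083. HSP90B1, printed above with 19 matches, was the single ER gene beyond these and was also lower in both pairs. In the heat shock and ATF4 lists, genes with 18 or 19 matches differed in direction. HSP90AB1 (18 matches, log2 fold change 0.22) was higher in both pairs and PPP1R15A (18 matches, −0.31) lower in both. HSP90AA1 (19 matches, −0.43) was split.

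The classes were set after the values had been seen, so these are descriptions without a test. All tested genes showed a gradient in the same direction but a shallower one, with medians of 0.052, 0.0091 and −0.027 in the same classes. Pearson's r between matches and log2 fold change was −0.49 across the 61 ER genes (Spearman's rho −0.50), −0.62 across the 9 (rho −0.64), and −0.084 across 14751 genes (rho −0.11). An unbroken GAA run of 12 nt or more graded the ER genes less clearly. Of the 4 tested ER genes with such a run, 2 were higher and 2 lower, with a median of −0.17. The 57 with shorter runs had a median of 0.013. Over all tested genes, 275 of 385 with such a run were lower, with a median of −0.16. The genes share the same 4 libraries and are not independent replicates.

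Transcript length moved with the matches. The median canonical length was 2626 nt for the 19 ER genes with at most 13 matches and 4377 nt for the 13 with 16 or 17, and log2 length correlated with log2 fold change at r = −0.32 across the 61 genes. Offsets for length and GC content were then added to the edgeR fit. The median was then 0.20 in the lowest class, with 18 of 19 higher. In the class of 16 or 17 it was −0.19, with 10 of 13 lower, and r across the 61 genes was −0.48. The median of all tested genes also rose, to 0.058 in this fit from 0.013 without the offsets. The order of these classes by their medians was the same in both fits. Log2 length correlated with the number of matches at r = 0.40 across the 61 genes and 0.46 across 14751 tested genes. Across these 14751 genes, r between matches and log2 fold change was −0.084 without the offsets and −0.052 with them. The offsets were fitted over all tested genes, on the length of the longest transcript and not the canonical one. The part of length in the gradient of the ER genes was not tested.

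The genes whose levels over the 4 libraries were most like those of HSPA5 were RPL18, a ribosomal protein (Euclidean distance of centred log2 CPM 0.014), PFN2, a profilin that binds actin (0.015), and VEZF1, a zinc finger protein (0.021). With 4 libraries many genes come close by this measure. The nearest of the other chaperone and UPR genes was XBP1, at a distance of 0.257 and rank 1665. XBP1 shares the ERSE with HSPA5, as do CANX (0.278, rank 1983), CALR (0.749, rank 10295) and PDIA6 (0.808, rank 10917).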

How the data were processed

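Counts per gene were deposited by the authors as whole numbers, not normalized, for 4 libraries. The labels name a total RNA library kit and the study's methods a stranded mRNA kit. Per the study's methods and processing notes, reads were trimmed with Trimmomatic, aligned to hg19/GRCh37 with STAR and counted with featureCounts. The strand setting of the counting, annotation release and treatment of multi-mapping reads are not given in the sources used here. All 4 count columns were used. Totals ranged from 10538284 to 17894953 counts, which limits genes such as HYOU1 and PDIA6.

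Genes were filtered with filterByExpr and tested with edgeR 4.0.16 in R 4.3.3 (TMM scaling, quasi-likelihood F test, ASO as the only term, Benjamini-Hochberg adjustment, threshold 0.05). The script was tested on simulated data. CPM used TMM-scaled library sizes, and log2 CPM a prior count of 2. With 2 against 2 libraries an exact permutation test cannot go below p = 0.333 and was not used. Alternatives were DESeq2 1.42.0, its size factors, scaling to library totals, omission of the filter, a filter at 1 CPM on average, the replicate number as a block, offsets for length and GC content (mgcv 1.9.3), a prior count of 0.5, and leaving out each library.

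The ER genes and all lists were chosen with earlier results of these data known. The text names the 10 genes, 6 sensor genes, the 3 genes of smallest p in each other list, any list gene with an adjusted p under 0.05 with or without the block, and the 3 genes nearest to HSPA5. HSP90B1 falls under this rule, and genes named only for exon overlap or for their match to the ASO target do not. Of the 63677 counted genes, 52181 matched GENCODE 44 by Ensembl identifier. Transcript and promoter positions are on GRCh38, and none was carried over from hg19. Promoter sequences are from RefSeq.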

Additional observations from a re-analysis of the deposited data

How the results depend on the processing

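The chaperone and UPR genes that each alternative kept (9 or 10) gave 0 calls under every alternative run, and HSPA5, CALR and PDIA6 kept their direction in 13 of 13. The number of genes called among all tested moved from 0 by edgeR to 3 with DESeq2, 116 without a filter on low counts, 258 with the replicate block in edgeR, 55 with the replicate block in DESeq2 and 367 with the replicate block and length and GC offsets, and ranged from 0 to 18 when 1 library was left out (5 without anti-GAA replicate 2 and 18 without control replicate 1). Libraries of the same number deviated together (r = 0.56 over 15116 genes), but with 2 pairs and no label saying what the number marks they share only a number. The median log2 fold change of the 9 genes ranged from −0.065 to 0.28 over the left-out libraries, the highest without control replicate 1. Scaling to total counts reversed CANX (−0.0613) and XBP1 (−0.0542). DNAJB9 reversed with the replicate block in edgeR (0.014), the block in DESeq2 (0.021), offsets (0.0456) and both (0.0695). Leaving out 1 library reversed PDIA4, CANX, SDF2L1, DNAJB9, XBP1, EDEM1, MBTPS1 and HSP90AA1, whose ranges were −0.30 to 0.0473, −0.13 to 0.17, −0.18 to 0.56, −0.28 to 0.29, −0.17 to 0.28, −0.74 to 0.14, −0.18 to 0.0298 and −1.18 to 0.066. The median of the ER genes with at most 13 matches ranged from 0.027 to 0.26 over the 13 alternatives, that of the genes with 16 or 17 matches from −0.40 to −0.040, and that of the PERK and ATF4 list from 0.27 to 0.76. CALR had an unadjusted p under 0.05 with total counts, the mean of 1 CPM and the 3 fits with the block. At that threshold 692 of 15116 genes were lower with total counts and 420 of 13808 with the mean of 1 CPM. With the block, 1466 of 15116 were lower in edgeR, 537 of 28017 in DESeq2 and 1184 of 14751 with the offsets. The cause of these shifts was not tested. With 2 libraries a group, intervals of most genes span close to a 2-fold change, and HYOU1 had a value in 6 of the 13 alternatives (log2 fold change −0.94 to −0.33), with no adjusted p from the block in DESeq2.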
